A study of Homo sapiens with 6 samples.

Results

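Immediate early genes are the genes a cell transcribes first after a stimulus, before any new protein is made. The set described here holds 9 of them, FOS, FOSB, JUN, JUNB, EGR1, ATF3, IER2, IER3 and NR4A1, taken by symbol and Ensembl identifier from a table of 58336 genes. All 9 passed the filter on low counts and were tested among 15673 genes. The 6 RNA libraries all came from Sum159 cells, human and triple-negative breast cancer in origin, labelled ITGB4 high or ITGB4 low. ITGB4 is a laminin-binding integrin subunit. ITGB4-low cells recovered from mouse lungs that also held LM2 cells gave 2 libraries, from clones 1 and 3. LM2 cells were derived from MDA-MB-231 breast cancer cells and colonise the lung. ITGB4-low clone 1 recovered from the lungs of mice given bleomycin, a drug that injures the lung, through the trachea gave 1 library. ITGB4-high cells grown in dishes gave 1 library. ITGB4-low control cells grown in dishes gave 2 libraries, clones 1 and 3. The lung-recovered cells carried tdTomato. Per the series' design text they were injected through the tail vein, and after dissociation of the lungs they spent a night in culture before being sorted, whereas the dish-grown cells are described with neither step. The lung, its trigger, dissociation and sorting therefore go together in these groups and cannot be told apart. Lungs without a trigger were not analysed here. The clone 3 assignment of the second LM2 library rests on its title, since the treatment description names clone 1 alone, and each clone is 1 line.

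FOS, FOSB, JUN, JUNB and ATF3 encode basic leucine zipper proteins that pair to form AP-1 and related transcription factors, with JUN family proteins able to pair with each other and FOS family proteins needing a JUN partner. EGR1 is a zinc finger factor and NR4A1 an orphan nuclear receptor. These genes are switched on by serum, growth factors and stress through ERK, p38 and JNK kinases, and their transcripts are short-lived. Enzymatic dissociation of tissue is known to induce them, together with heat shock genes, in freshly separated cells, so the comparison asks whether the steps between lung and RNA left such a trace in lung-recovered cells.

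In GENCODE 29 on GRCh38, FOS (ENSG00000170345) lies at chr14:75278774-75282230 and FOSB (ENSG00000125740) at chr19:45467995-45475179, both on the plus strand. JUN (ENSG00000177606) lies at chr1:58780788-58784327 on the minus strand and JUNB (ENSG00000171223) at chr19:12791496-12793315 on the plus strand. ATF3 (ENSG00000162772) lies at chr1:212565334-212620777, EGR1 (ENSG00000120738) at chr5:138465490-138469315 and NR4A1 (ENSG00000123358) at chr12:52022832-52059507, all on the plus strand. IER2 (ENSG00000160888) lies at chr19:13150415-13154908 on the plus strand and IER3 (ENSG00000137331) at chr6:30743199-30744554 on the minus strand. Counts cover each gene as a whole and do not separate its exons.

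Library totals ran from 13607953 to 22222121 counts, and mitochondrial transcripts took 5.35% to 7.08% of them. Counts of the 9 genes ran from 73 to 12857 per library, all above the floor of 3 counts that a count of 0 would allow, which covers counting error only. Levels are given as CPM, counts relative to the library total scaled by TMM factors, which ran from 0.947 to 1.03. Sum159 cells were positive for VIM and KRT18, and CDH1, EPCAM, ESR1 and PGR were at or near 0 in every library. Macrophage and myeloid markers summed to 1.53 to 6.92 CPM over 10 genes in lung-recovered cells, against 1.29 to 2.56 CPM in ITGB4-low cultures, with AIF1 at 0 throughout. Of these, PTPRC gave 2.32 and 0.256 CPM under LM2 (clones 1 and 3) and 2.69 CPM under bleomycin, against 0.208 and 0.184 CPM in the cultures. ITGAM, at 0.542, 0.0639 and 0.513 CPM in the same order, was at 0 in both cultures. CD14, CD68 and LYZ overlapped between lung-recovered cells and the cultures, and TYROBP was at 0 in every lung-recovered library. Lymphocyte markers summed to at most 0.184 CPM in any library. Endothelial markers summed to 2.56 to 11.3 CPM in lung-recovered cells, against 72.9 to 107.8 CPM in ITGB4-low cultures. KDR was the main one in those cultures, and CDH5 was at 0 in every library. PECAM1 went the other way from KDR. It had 2.32 and 3.64 CPM under LM2 (clones 1 and 3) and 9.42 CPM under bleomycin, against 1.80 and 2.02 CPM in the cultures. Lung epithelial markers summed to 2.88 to 3.87 CPM in lung-recovered cells, against 1.84 to 2.42 CPM in ITGB4-low cultures, with SFTPC, SFTPA1 and SCGB1A1 at 0 in every library. Fibroblast markers summed to 499.9 to 823 CPM over 6 genes in lung-recovered cells, against 124.5 to 161 CPM in ITGB4-low cultures. COL1A1 and PDGFRA were the highest of them on the mean of the lung libraries, and LUM was at most at 0.256 CPM. PDGFRA in LM2 clone 3, at 27.6 CPM, was below both ITGB4-low cultures (32.6 and 35.2 CPM). DCN under LM2 (14.6 and 12.8 CPM) was below both too (16.8 and 21.7 CPM) but not under bleomycin (39.2 CPM), and COL3A1 overlapped. The part of these markers in the results below was not tested. All counts are of human genes, while the lungs were of mice. Low marker values therefore cannot show how many mouse lung cells were carried over. In such bulk libraries fewer cells of a type and less RNA per cell cannot be told apart. LM2 cells are also human, and no marker list here separates them from Sum159 cells.

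JUN, JUNB, ATF3, IER2 and IER3 stood higher in every lung-recovered library than in both ITGB4-low cultures, while FOS, FOSB, EGR1 and NR4A1 overlapped between the groups. That is 5 of 9 genes above without overlap, beside 20.4% of all tested genes, and 0 of 9 below, beside 25.4%. None of the 9 passed edgeR's quasi-likelihood test, in which 0.498% of tested genes were called (78 genes, Benjamini-Hochberg adjusted p under 0.05). At an unadjusted p under 0.05, JUN, JUNB, IER2 and IER3 differed, all higher, beside 9.26% of tested genes. DESeq2 called JUN, IER2 and IER3 higher, beside 8.15% of tested genes, and limma-voom called 0 of the 9, beside 0.619%. With the clone as a replicate block edgeR called 39 genes in place of 78, and again none of the 9. Over the 9 genes the median log2 fold change was 0.67, against 0.00279 over all tested genes. The cultured ITGB4-high cells, which are not described as passing through a lung, a dissociation or a sort before RNA extraction, were also above both ITGB4-low cultures in these 5 genes. Every lung library and the ITGB4-high library were thus above both ITGB4-low cultures in 5 of the 9 genes, beside 15.8% of tested genes. No gene of the 9 had every lung-recovered library above all 3 cultures, beside 7.29% of tested genes that did, and none had every one below all 3, beside 8.27%.

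**Figure D1:**
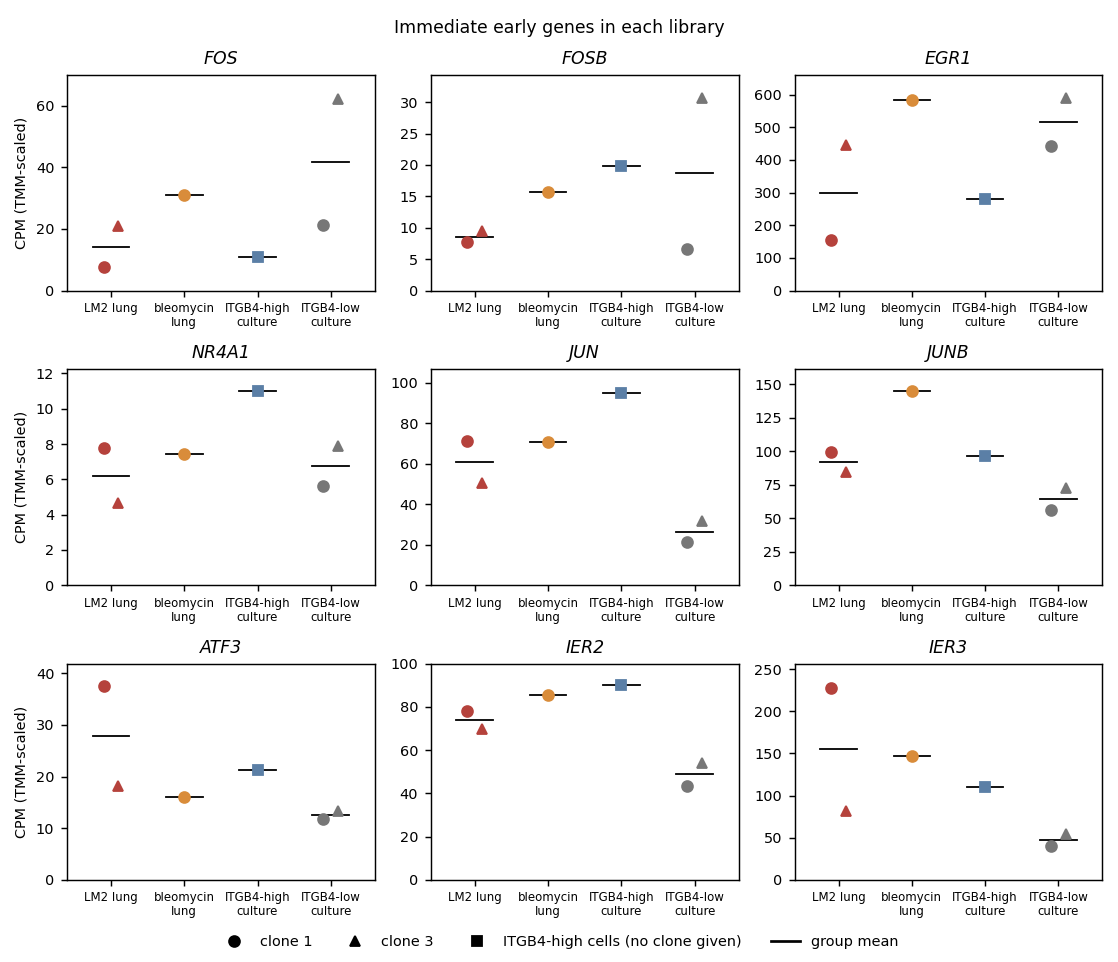
Level of each immediate early gene in CPM (vertical axes, from 0) in each of the 6 libraries, by group; symbols give the clone and lines the group mean. For JUN, JUNB, ATF3, IER2 and IER3 the lung-recovered and ITGB4-high points lie above both ITGB4-low cultures, and for FOS and FOSB the clone 3 culture is the highest point, at 62.2 and 30.7 CPM.

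JUN, the AP-1 subunit that activates transcription as a dimer with itself or with FOS, had 70.9 and 50.4 CPM in LM2 clones 1 and 3 and 70.4 CPM in the bleomycin library, against 21.1 and 31.8 CPM in ITGB4-low cultures of clones 1 and 3. All lung libraries were above both cultures, and the highest library of all was cultured ITGB4-high at 95.03 CPM. Over the groups JUN averaged 63.9 ± 11.7 CPM in lung-recovered cells (SD, n = 3) and 26.4 ± 7.57 CPM in ITGB4-low cultures (SD, n = 2). The fitted log2 fold change was 1.27 (SE 0.25, adjusted p = 0.0861, edgeR), which did not pass. Without LM2 clone 3 JUN passed (1.43, adjusted p = 0.0327, edgeR), in a fit that called 6.55% of genes. It did not pass without LM2 clone 1 (1.19, adjusted p = 0.102), the clone 1 culture (adjusted p = 0.467) or the clone 3 culture (adjusted p = 0.533, all edgeR).

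JUNB, a JUN relative that is a weaker activator on its own, had 99.3 and 84.8 CPM in LM2 clones 1 and 3 and 145 CPM in the bleomycin library, against 55.8 and 72.5 CPM in ITGB4-low cultures. The groups did not overlap, with bleomycin the highest, and ITGB4-high cells were at 96.3 CPM. The log2 fold change of all lung cells over ITGB4-low culture was 0.77 (SE 0.26, adjusted p = 0.19, edgeR). JUNB shares 259 exon bases with HOOK2 on the opposite strand, and the strand setting of the counting is not given in the sources used here. HOOK2 was between 13.3 and 16.04 CPM in all libraries, far below JUNB.

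FOS, the founding FOS family gene and a standard readout of recent stimulation, had 7.67 and 20.8 CPM in LM2 clones 1 and 3 and 30.9 CPM in the bleomycin library, against 21.1 and 62.2 CPM in ITGB4-low cultures. The lung-recovered range overlapped that of the cultures, and the highest library was the untreated clone 3 culture. ITGB4-high cells, at 10.8 CPM, were below both ITGB4-low cultures. The log2 fold change of all lung cells over ITGB4-low culture was -1.07 (SE 0.64, adjusted p = 0.385, edgeR), and -0.095 without the clone 3 culture (adjusted p = 0.979). FOSB had 7.75 and 9.46 CPM in LM2 clones 1 and 3 and 15.6 CPM in the bleomycin library, against 6.65 and 30.7 CPM in ITGB4-low cultures. Every lung library lay between the 2 cultures, and ITGB4-high cells did too, at 19.8 CPM. The FOSB log2 fold change was -0.77 (SE 0.63, adjusted p = 0.508, edgeR), and it turned to 0.72 without the clone 3 culture (adjusted p = 0.789).

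ATF3, a stress-induced member of the ATF family that can act as a repressor, had 37.5 and 18.1 CPM in LM2 clones 1 and 3 and 15.96 CPM in the bleomycin library, against 11.8 and 13.3 CPM in ITGB4-low cultures. LM2 clone 1 stood apart from the rest, and the other lung libraries were below the 21.3 CPM of ITGB4-high cells. The log2 fold change of all lung cells over ITGB4-low culture was 0.92 (SE 0.40, adjusted p = 0.262, edgeR), and 0.43 without LM2 clone 1 (adjusted p = 0.176).

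EGR1, which binds GC-rich promoters and is driven by serum response factor, had 154 and 446 CPM in LM2 clones 1 and 3 and 584 CPM in the bleomycin library, against 444 and 591 CPM in ITGB4-low cultures. LM2 clone 1 was the lowest library, the other lung libraries lay within the range of the cultures, and ITGB4-high cells were at 281 CPM. The log2 fold change of all lung cells over ITGB4-low culture was -0.39 (SE 0.52, adjusted p = 0.693, edgeR). NR4A1, which links growth factor and stress signals to metabolism and cell survival, had the lowest mean CPM in lung-recovered cells and in ITGB4-low cultures. FOS was slightly lower than NR4A1 in LM2 clone 1 (7.67 CPM) and in ITGB4-high cells (10.8 CPM). NR4A1 had 7.75 and 4.67 CPM in LM2 clones 1 and 3 and 7.44 CPM in the bleomycin library, against 5.61 and 7.86 CPM in ITGB4-low cultures, with 11.0 CPM in ITGB4-high cells. Lung and culture ranges overlapped throughout, and the log2 fold change was -0.03 (SE 0.31, adjusted p = 0.961, edgeR). NR4A1 shares 754 exon bases with the antisense gene NR4A1AS, which had 0 counts in every library.

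IER2, a small nuclear protein of the immediate early response, had 78.3 and 69.8 CPM in LM2 clones 1 and 3 and 85.4 CPM in the bleomycin library, against 43.3 and 54.2 CPM in ITGB4-low cultures. The groups did not overlap, and the spread within each was small: 77.9 ± 7.83 CPM in lung-recovered cells (SD, n = 3) and 48.8 ± 7.74 CPM in ITGB4-low cultures (SD, n = 2). The log2 fold change was 0.67 (SE 0.16, adjusted p = 0.118, edgeR), and ITGB4-high cells were again higher, at 90.3 CPM. IER2 shares 946 exon bases with an antisense gene that had 5 to 9 counts per library. IER3, a stress-inducible regulator of apoptosis and an NF-kB target, had 228 and 81.8 CPM in LM2 clones 1 and 3 and 146 CPM in the bleomycin library, against 39.5 and 54.7 CPM in ITGB4-low cultures. All lung libraries were above both cultures, with LM2 clone 1 highest, and ITGB4-high cells were at 110.1 CPM. The IER3 log2 fold change of 1.69 (SE 0.44, adjusted p = 0.139, edgeR) was the largest of the 9, and without LM2 clone 3 it was 2.003 (adjusted p = 0.0264, edgeR). IER3 did not pass without LM2 clone 1 (1.27, adjusted p = 0.147) or without the clone 1 or clone 3 culture (adjusted p = 0.551 and 0.721, all edgeR). IER3 shares 359 exon bases with the antisense gene IER3-AS1, which had 2 to 15 counts per library.

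The promoters of a pair of genes from each pattern are shown as examples: FOS and EGR1, which overlapped between lung and culture, and JUN and ATF3, which did not. Sequences are from RefSeq (GRCh38.p14) and run from 250 bases before to 50 bases after the annotated start, on the gene's strand, at chr14:75278578-75278877 (plus strand) for FOS, chr5:138465229-138465528 (plus strand) for EGR1, chr1:58783998-58784297 (minus strand) for JUN and chr1:212565157-212565456 (plus strand) for the upstream of 2 starts listed for ATF3. Capitals mark matches, on either strand, to the CArG box bound by serum response factor, the CRE core TGACG, the CRE-like site TGACNTCA bound by JUN and ATF dimers, the AP-1 site TGANTCA, the EGR site GCGNGGGCG and the TATA box TATAAA. A CRE-like site with G in place of N also holds the CRE core.
FOS: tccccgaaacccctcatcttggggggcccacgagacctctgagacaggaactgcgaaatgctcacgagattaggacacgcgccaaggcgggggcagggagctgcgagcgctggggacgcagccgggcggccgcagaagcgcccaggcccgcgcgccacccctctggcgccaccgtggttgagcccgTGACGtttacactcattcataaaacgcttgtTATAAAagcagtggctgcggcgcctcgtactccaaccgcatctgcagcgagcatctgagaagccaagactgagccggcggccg
EGR1: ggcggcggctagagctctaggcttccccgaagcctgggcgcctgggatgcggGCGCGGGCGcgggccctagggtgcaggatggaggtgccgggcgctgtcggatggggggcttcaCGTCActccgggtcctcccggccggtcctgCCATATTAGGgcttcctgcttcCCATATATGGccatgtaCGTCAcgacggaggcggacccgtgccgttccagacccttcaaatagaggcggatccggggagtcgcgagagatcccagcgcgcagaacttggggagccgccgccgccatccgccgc
JUN: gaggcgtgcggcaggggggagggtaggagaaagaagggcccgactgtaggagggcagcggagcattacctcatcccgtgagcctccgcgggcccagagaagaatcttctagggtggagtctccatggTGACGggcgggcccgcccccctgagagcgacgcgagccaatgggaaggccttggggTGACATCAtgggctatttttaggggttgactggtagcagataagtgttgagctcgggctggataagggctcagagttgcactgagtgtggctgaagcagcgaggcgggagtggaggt
ATF3: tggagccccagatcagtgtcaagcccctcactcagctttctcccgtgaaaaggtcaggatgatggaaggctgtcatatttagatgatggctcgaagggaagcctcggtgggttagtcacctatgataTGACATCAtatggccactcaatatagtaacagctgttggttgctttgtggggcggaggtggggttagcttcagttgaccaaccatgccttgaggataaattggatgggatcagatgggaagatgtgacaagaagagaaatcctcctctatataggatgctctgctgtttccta

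EGR1 held 2 CArG boxes, beginning at -105 and -83 from the start, a motif found in 1.29% of 35114 promoter windows of this length, and it also held an EGR site, found in 9.43%. FOS held a CRE core at -64 (24.6% of windows) and a TATA box at -33 (11.5% of windows). JUN at -67 and ATF3 at -123 each held a CRE-like site (7.72% of windows). JUNB and IER2, which did not overlap between lung and culture either, held no CRE-like site, and neither did the downstream ATF3 start. CRE cores and TATA boxes did not separate the patterns. JUNB, which did not overlap between lung and culture, held a CRE core at -137 and a TATA box at -31, as FOS did. CRE cores also lay at -140 in IER2, at -123 in JUN, and at -135 and -66 in EGR1. None of the windows of the 8 members with an entry held the AP-1 site (7.71% of windows), and CArG boxes were found only in that of EGR1. Sites more than 250 bases before the start were not searched, so FOS or another gene may hold such boxes farther upstream. Matches are descriptions of these letters, not of binding. IER3 had no entry in the promoter table.

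Taken by trigger, the LM2 libraries against ITGB4-low culture (n = 2 each) gave log2 fold changes of 1.72 for IER3 (SE 0.52), 1.20 for JUN (SE 0.28), 1.14 for ATF3 (SE 0.38), 0.60 for IER2 (SE 0.17) and 0.52 for JUNB (SE 0.18). FOS was at -1.54 (SE 0.70), FOSB at -1.12 (SE 0.72), EGR1 at -0.79 (SE 0.52) and NR4A1 at -0.13 (SE 0.36). None of the 9 passed (adjusted p from 0.23 to 0.865, edgeR), beside 0.0319% of tested genes. At an unadjusted p under 0.05, 5 did, beside 7.29% of tested genes higher. DESeq2 called JUN and IER3 (4.13% of tested genes called), and limma-voom called 0 (0.0128%). The direction of the NR4A1 change rested on single libraries, as it was 0.20 without LM2 clone 3 and 0.14 without the clone 3 culture. FOSB likewise turned to 0.37 without the clone 3 culture. Without LM2 clone 1 the IER3 change was 0.79 and the ATF3 change 0.52. With the clone as a replicate block, the count of called genes over the whole table was 36 in place of 5 for LM2 lung cells. Without LM2 clone 3, edgeR called JUN, JUNB, ATF3, IER2 and IER3 higher and EGR1 lower in a fit that called 40.8% of genes, and without LM2 clone 1 it called IER2 alone of the 9, beside 11.6%.

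The bleomycin library (n = 1) against ITGB4-low culture (n = 2) took its spread from the groups with 2 libraries, and the single library is assumed to vary like them. IER3 was at 1.63 (SE 0.60), JUN at 1.41 (SE 0.33), JUNB at 1.17 (SE 0.22) and IER2 at 0.81 (SE 0.20) on the log2 scale. ATF3 was at 0.34, EGR1 at 0.17 and NR4A1 at 0.14, while FOS was at -0.43 and FOSB at -0.26. None passed (adjusted p from 0.193 to 0.921, edgeR), beside 0.0255% of tested genes. At an unadjusted p under 0.05, 4 did (6.65% of tested genes higher). DESeq2 called JUN and JUNB (3.7% of tested genes called), and limma-voom called 0 (0.0191%). With the clone as a replicate block, FOS was at 0.52 (adjusted p = 0.628) and FOSB at 0.67 (adjusted p = 0.851, edgeR), both with the sign turned. The block fits a clone difference shared by lung and dish-grown libraries, and does not compare the bleomycin library with its own clone alone. In that fit the count of called genes was 8 in place of 4. With LM2 clone 1 or LM2 clone 3 left out, edgeR called JUN, JUNB, IER2 and IER3 higher, beside 28.1% (without clone 1) and 27.2% (without clone 3) of genes.

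Between the triggers, bleomycin over LM2 gave log2 differences of 1.11 for FOS (SE 0.82), 0.96 for EGR1 (SE 0.62), 0.86 for FOSB (SE 0.86) and 0.65 for JUNB (SE 0.22), and -0.80 for ATF3 (SE 0.48). None passed (adjusted p from 0.926 to 0.991, edgeR), and 0% of tested genes did. JUNB alone of the 9 had an unadjusted p under 0.05 (0.0331), beside 2.04% of tested genes higher. DESeq2 called 0 of the 9 (0.357% of tested genes called), as did limma-voom (0%). Without LM2 clone 3, EGR1 (1.92, adjusted p = 0.00243) and ATF3 (-1.24, adjusted p = 0.00351) passed in edgeR, and without LM2 clone 1, JUNB did (0.78, adjusted p = 0.0456, edgeR). Those fits called 19.2% and 7.42% of genes.

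Cultured ITGB4-high cells (n = 1) against cultured ITGB4-low cells (n = 2) set 2 kinds of dish-grown cells side by side. JUN was at 1.84 (SE 0.33, adjusted p = 0.0778, edgeR), IER3 at 1.22 (SE 0.61), IER2 at 0.89 (SE 0.20), ATF3 at 0.76 (SE 0.45), NR4A1 at 0.71 (SE 0.42) and JUNB at 0.58 (SE 0.22). FOS was at -1.95 (SE 0.93) and EGR1 at -0.88 (SE 0.66), with FOSB at 0.08 (SE 0.86). None passed, beside 0.0893% of tested genes. JUN, JUNB and IER2 had an unadjusted p under 0.05, all higher, beside 10.4% of tested genes. DESeq2 called JUN and IER2 (9.68% of tested genes called), and limma-voom called 0 (0.0128%). With the clone as a replicate block FOS was at -1.75 (adjusted p = 0.0486, edgeR) in a fit that called 2.32% of tested genes, 363 in place of 14. The ITGB4-high library has no clone label and entered that fit midway between the clones. Against the clone 1 culture alone FOS was at -0.97 (adjusted p = 0.768), and against the clone 3 culture alone at -2.53 (adjusted p = 0.437, both edgeR). ITGB4-high was above both ITGB4-low cultures in 6 of the 9 genes, beside 43.6% of tested genes, and below both in FOS and EGR1, beside 45.2%. Without LM2 clone 3, edgeR called JUN, JUNB, ATF3, IER2 and IER3 higher and EGR1 lower (41.6% of genes called), and without LM2 clone 1 it also called NR4A1 higher (42%). The lung and ITGB4-high comparisons share the same ITGB4-low cultures.

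**Figure D2:**
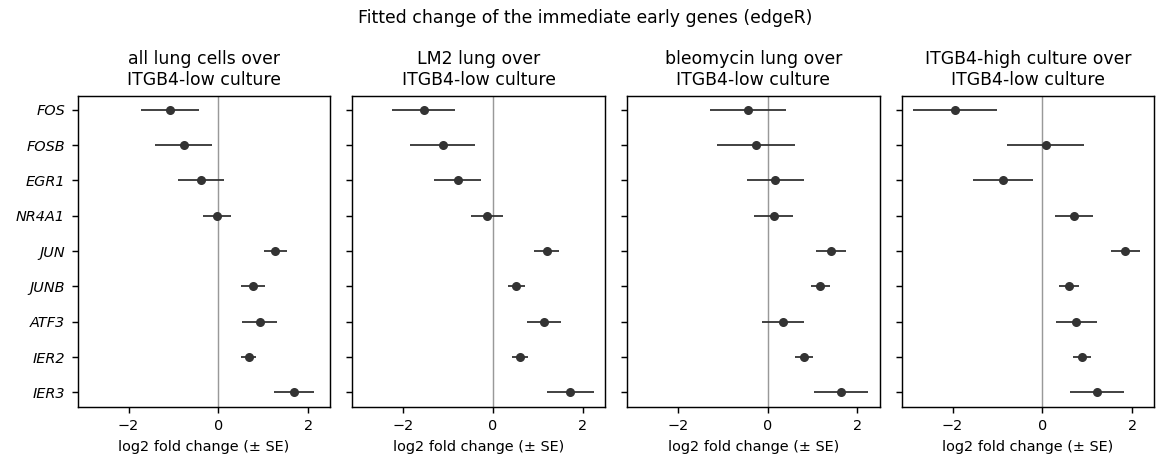
Fitted log2 fold change (points) with its SE (bars) of each gene in 4 comparisons with ITGB4-low culture, which all use the same 2 cultures. JUN, JUNB, ATF3, IER2 and IER3 lie right of 0 in each panel, and FOS lies left of 0 in each, though its sign turned in the bleomycin panel with the clone as a block.

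Set directly against ITGB4-high culture, the lung-recovered cells had FOS at 0.88 (SE 0.89), EGR1 at 0.49 (SE 0.68), IER3 at 0.47 (SE 0.54), JUNB at 0.19 (SE 0.33) and ATF3 at 0.16 (SE 0.49). FOSB was at -0.85 (SE 0.77), NR4A1 at -0.74 (SE 0.37), JUN at -0.57 (SE 0.29) and IER2 at -0.21 (SE 0.20). None passed (adjusted p from 0.354 to 0.889, edgeR), beside 0.108% of tested genes, and 0 had an unadjusted p under 0.05, beside 18.3% of tested genes. DESeq2 (6.93% of tested genes called) and limma-voom (0.0957%) called 0 of the 9. With the clone as a replicate block 0 genes passed over the whole table, in place of 17. These misses do not show that the 2 kinds of cell have the same levels. ITGB4-high is 1 library here.

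Set against its own clone in culture, each lung library showed the same 5 genes on the higher side. IER3 had log2 ratios of 2.53 and 0.58 under LM2 (clones 1 and 3) and 1.89 under bleomycin. JUN had 1.75, 0.67 and 1.74 in the same order, JUNB 0.83, 0.23 and 1.38, IER2 0.86, 0.36 and 0.98, and ATF3 1.66, 0.44 and 0.43. LM2 clone 3 gave the smallest ratio for JUN, JUNB, IER2 and IER3. In all, 5 of 9 genes were above their own clone in every lung library, beside 23.9% of tested genes, and 0 of 9 were below, beside 29.1%. FOS had -1.46 and -1.58 under LM2 but 0.55 under bleomycin. EGR1 had -1.53, -0.41 and 0.39 in that order. FOSB had 0.22, -1.70 and 1.23, and NR4A1 had 0.47, -0.75 and 0.41, so for both the LM2 ratios of the 2 clones had opposite signs.

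FOS and FOSB also differed between the ITGB4-low cultures themselves. Clone 3 over clone 1 in culture gave log2 ratios of 1.56 for FOS and 2.21 for FOSB, against a median absolute difference of 0.15 over all tested genes on the log2 CPM scale. Their differences lay at the 99.3 and 99.9 percentiles of tested genes, and 3.87% of tested genes differed by more than 1 on that scale. For FOS this gap between untreated dishes was close in size to the own-clone LM2 ratios, and for FOSB it was wider than any lung ratio. The other 7 genes differed by 0.17 (ATF3) to 0.59 (JUN) between the cultures, at the 55.5 to 88.8 percentiles. Between the LM2 libraries, clone 1 over clone 3, EGR1 (-1.54), IER3 (1.48), FOS (-1.43) and ATF3 (1.05) differed by more than 1, as did 15.6% of tested genes.

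**Figure D3:**
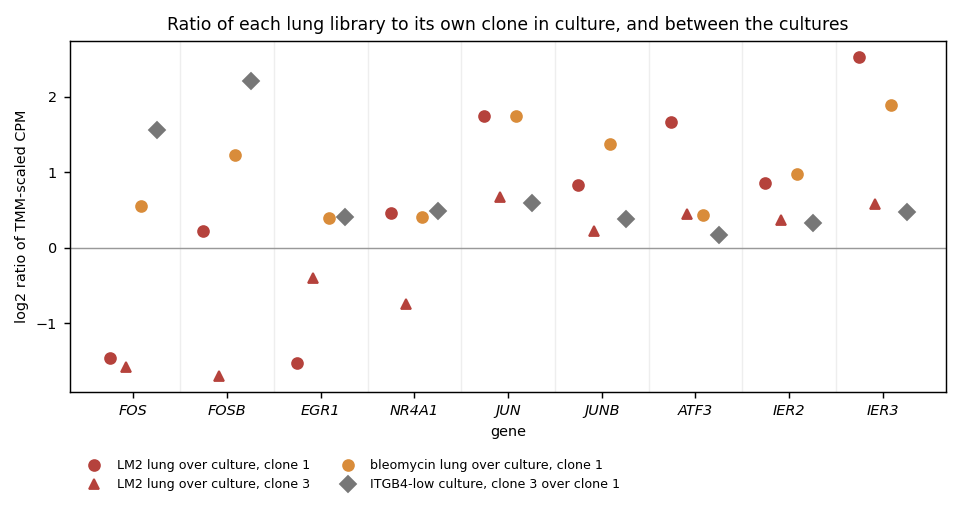
Log2 ratio of CPM (vertical axis) of each lung library over its own clone in culture, and of the clone 3 over the clone 1 culture (grey), for each gene. JUN, JUNB, ATF3, IER2 and IER3 have every lung ratio above 0, and the grey points of FOS (1.56) and FOSB (2.21) are the farthest grey points from 0.

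Per length, as CPM per kilobase of exon, EGR1 was the most abundant of the 9 on the mean of all lung libraries and in the ITGB4-high and ITGB4-low cultures, but not in LM2 clone 1, where IER3 (168) and JUNB (54.6) stood above EGR1 (48.9). NR4A1 was the least abundant in every library. In lung-recovered cells EGR1 averaged 126 CPM per kilobase, followed by IER3 (112), JUNB (60.3), IER2 (25.3), JUN (18.1), FOS (6.12), ATF3 (5.90), FOSB (1.97) and NR4A1 (0.907). In ITGB4-low cultures the order was EGR1 (165), JUNB (35.3), IER3 (34.7), IER2 (15.9), FOS (12.9), JUN (7.46), FOSB (3.36), ATF3 (3.12) and NR4A1 (0.923). The ranges over lung libraries overlapped for EGR1 (48.9 to 186) and IER3 (60.3 to 168), for JUNB (46.6 to 79.6) with both of these, and for FOS (2.37 to 9.54) with ATF3 (3.95 to 9.28) and FOSB (1.40 to 2.82). In the cultures JUNB (30.7 to 39.9) overlapped IER3 (29.1 to 40.4), FOS (6.52 to 19.2) overlapped IER2 (14.1 to 17.7) and JUN (5.95 to 8.97), and FOSB (1.20 to 5.52) overlapped ATF3 (2.93 to 3.30). JUN thus stood above FOS in lung-recovered cells, with JUN from 14.2 to 20.03 and FOS at most at 9.54 in every library. In ITGB4-low clone 1 culture JUN (5.95) and FOS (6.52) were near each other, and in clone 3 culture JUN (8.97) was below FOS (19.2).

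Of 22 other immediate early transcription factors, 21 were tested and 0 passed in lung-recovered cells against ITGB4-low culture in edgeR. By the unadjusted p under 0.05, 8 were higher, beside 9.26% of tested genes, and 1 was lower, beside 11.3%. Their median log2 fold change was 0.32, and 11 were above both cultures in every lung library and 1 below, beside 20.4% and 25.4% of tested genes. Close relatives of the 9 genes were mixed. The FOS relative FOSL1 had 139.9 and 53.8 CPM in LM2 clones 1 and 3 and 70.6 CPM in the bleomycin library, against 30.8 and 36.1 CPM in ITGB4-low cultures (log2 fold change 1.39, adjusted p = 0.167, edgeR), and 176 CPM in ITGB4-high cells. The JUN relative JUND, at 39.6 to 47.7 CPM in lung-recovered cells, was above its 30.4 and 36.6 CPM in the cultures, while FOSL2 overlapped between them. Among receptors related to NR4A1, NR4A3 had 0.577 to 1.09 CPM in lung-recovered cells, against 2.56 and 2.94 CPM in ITGB4-low cultures (-1.84, adjusted p = 0.0959, edgeR), and 0.438 CPM in ITGB4-high cells. NR4A2 overlapped, at 1.70 to 6.03 CPM in lung-recovered cells, against 4.64 and 5.98 CPM in ITGB4-low cultures. EGR2 overlapped too, at 0.93 to 5.26 CPM in lung-recovered cells, against 4.92 and 7.12 CPM in ITGB4-low cultures, whereas EGR3 had 2.94 to 8.59 CPM in lung-recovered cells, against 1.94 and 2.53 CPM. By size, among those with a mean log2 CPM of 2 or more, which leaves out NR4A3, the leading factors were BHLHE40, a circadian and hypoxia-linked repressor (1.85, adjusted p = 0.0817), MAFF, a small MAF protein (1.83, adjusted p = 0.163), the Notch target HES1 (1.77, adjusted p = 0.0745) and CSRNP1 (1.47, adjusted p = 0.173, all edgeR). In this list DESeq2 was read only for these 4, FOSL1 and NR4A3. It called all 4 of these and FOSL1 higher and NR4A3 lower, beside 8.15% of tested genes called. HES1 had 46.3 and 45.6 CPM in LM2 clones 1 and 3 and 53.8 CPM in the bleomycin library, against 9.35 and 18.9 CPM in ITGB4-low cultures, and 80.4 CPM in ITGB4-high cells. The relatives FOSL1, FOSL2, JUND, EGR2, EGR3, NR4A2 and NR4A3 were chosen for naming after their values were seen.

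Immediate early genes that act in signalling, such as phosphatases and RNA decay factors, were mixed. Of 28 tested, CCN2, a matricellular target of YAP and serum response factor, was the one that passed in lung-recovered cells, beside 0.498% of tested genes. By the unadjusted p under 0.05, 9 were higher, beside 9.26% of tested genes, and 6 were lower, beside 11.3%. CCN2 was lower in lung-recovered cells, at 29.7 and 33.6 CPM under LM2 (clones 1 and 3) and 15.8 CPM under bleomycin, against 163.5 and 269.5 CPM in ITGB4-low cultures (log2 fold change -3.04, adjusted p = 0.0461, edgeR), and was at 13.0 CPM in ITGB4-high cells. CCN2 lost its call without the clone 1 culture (adjusted p = 0.265), the clone 3 culture (0.45), the bleomycin library (0.118) or LM2 clone 1 (0.0768, all edgeR), with log2 fold changes from -2.64 to -3.34. In all, 12 of the 28 were above both cultures in every lung library and 8 below, beside 20.4% and 25.4% of tested genes, with a median of 0.47. The ERK phosphatase DUSP5 had 174 and 43.9 CPM in LM2 clones 1 and 3 and 92.8 CPM in the bleomycin library, against 19.3 and 22.1 CPM in ITGB4-low cultures (2.32, adjusted p = 0.13, edgeR), and 235 CPM in ITGB4-high cells. HBEGF, an EGF receptor ligand (2.24, adjusted p = 0.301), and TNFAIP3, a feedback inhibitor of NF-kB (2.02, adjusted p = 0.166, both edgeR), had the next largest positive values of the list at that level of expression. In this list DESeq2 was read only for CCN2, DUSP5, HBEGF and TNFAIP3. It called CCN2 lower and DUSP5 and TNFAIP3 higher, beside 8.15% of tested genes called. HBEGF was highest in LM2 clone 1, at 68.6 CPM, with 4.35 CPM in LM2 clone 3 and 17.8 CPM in the bleomycin library, against 5.82 and 6.89 CPM in ITGB4-low cultures.

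Heat shock genes, the other group that dissociation is known to induce, had a median change in all lung cells near that of all tested genes. It lay within the quartiles of all tested genes (-0.31 to 0.30). By trigger, the median over ITGB4-low culture was -0.10 under LM2 and 0.012 under bleomycin. Of 16, 15 were tested and 0 passed in edgeR, and the untested HSPA6 was at most at 0.155 CPM. By the unadjusted p under 0.05, 1 was higher and 2 were lower, beside 9.26% and 11.3% of tested genes. The median log2 fold change of lung-recovered cells over ITGB4-low culture was -0.11, with 2 genes above both cultures in every lung library and 4 below, beside 20.4% and 25.4% of tested genes. The stress-inducible HSP70 gene HSPA1B had 2.94 and 5.05 CPM in LM2 clones 1 and 3 and 6.73 CPM in the bleomycin library, against 7.62 and 8.83 CPM in ITGB4-low cultures (-0.74, adjusted p = 0.304, edgeR). Its neighbour HSPA1A, a near-identical copy whose reads may be split with it, had 1.01 to 2.17 CPM in lung-recovered cells, against 2.49 and 3.95 CPM in ITGB4-low cultures. Both HSP70 genes were thus lower in every lung library than in either culture. The small heat shock protein HSPB1 was at -0.75 (adjusted p = 0.167), the cochaperone DNAJB4 at -0.69 (adjusted p = 0.142) and the endoplasmic reticulum chaperone HSPA5 at 0.75 (adjusted p = 0.349, all edgeR). In this list DESeq2 was read only for HSPA1B, HSPB1, DNAJB4 and HSPA5. It called DNAJB4 alone of them, as lower, beside 8.15% of tested genes called. HSPA5 reached 1596 CPM in LM2 clone 1, with 756 and 657 CPM in LM2 clone 3 and the bleomycin library, against 671 and 521 CPM in ITGB4-low cultures.

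**Figure D4:**
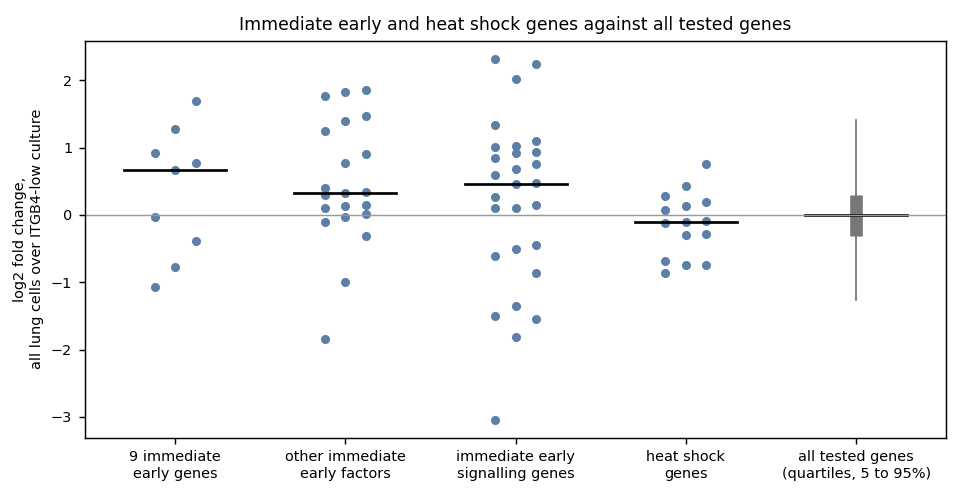
Log2 fold change of all lung-recovered cells over ITGB4-low culture (vertical axis) for each tested gene of the 4 lists (points, with the list median as a line) and for all tested genes (median, quartiles as a thick bar and the 5 to 95% range as a thin one). The medians are 0.67 for the 9 genes, 0.32 for other factors, 0.47 for signalling genes and -0.11 for heat shock genes, and CCN2 is the lowest point at -3.04.

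For the genes whose log2 CPM spanned at least 2 over the 6 libraries, the nearest profiles among 10134 named protein-coding genes with a mean log2 CPM of 2 or more were found by the root mean square difference of log2 CPM centred on each gene's mean. IER3 was nearest to BHLHE40 (0.17), NFKB2 (0.18) and NEDD4L (0.20). NFKB2 had 230 and 71.4 CPM in LM2 clones 1 and 3 and 111 CPM in the bleomycin library, against 35.5 and 39.8 CPM in ITGB4-low cultures. JUN was nearest to TSPAN9 (0.14), KREMEN1 (0.18) and BAIAP2L1 (0.22). FOS had no profile as close, with TUBA1A (0.33), IFI6 (0.40) and CYBRD1 (0.41), nor did FOSB, with NPR3 (0.50), ACTG1 (0.54) and GALNS (0.55). These distances describe 6 libraries and carry no test.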

How the data were processed

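Polyadenylated RNA of 6 libraries went through a kit that marks strand with dUTP, per the labels' protocols. STAR 2.7.1a and the hg38 build are named in the submitters' processing notes. The authors deposited whole-number counts per gene with no normalization. The sources used here give no counter, annotation release or strand setting. Of 58336 identifiers, 58216 matched GENCODE release 29, and symbols and exon lengths come from it and from a newer symbol table. Groups follow sample titles. CPM was computed from counts with TMM factors.

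The test was edgeR 4.0.16 (R 4.3.3), quasi-likelihood, robust, filterByExpr minimum count 10, with Benjamini-Hochberg adjustment over 15673 genes and a threshold of 0.05. All 6 libraries entered each fit, by 4 groups with 2 residual degrees of freedom or, for all lung cells, by 3 classes with 3. The p-values reflect only how far these libraries differ, which may be technical. The scripts were tested on simulated data. DESeq2 1.42.0, limma-voom (limma 3.58.1), RLE factors, no filter, left-out libraries and a clone block were alternatives. Within the LM2 and the ITGB4-low groups, replicates are libraries of separate clones, and their counts differed beyond sampling noise. The lung class of 3 libraries holds 2 of clone 1, under LM2 and under bleomycin, and the main fit has no clone term. Clone numbers pair libraries because titles name the clone; the correlation of clone deviations across 15673 genes was 0.00115.

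The 9 genes and all lists were chosen with earlier results of these data known. Named genes were the 9, called list members, up to 4 per other list with the largest change among genes with a mean log2 CPM of 2 or more, and the 3 nearest profiles of genes spanning at least 2 in log2 CPM (prior count 2).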

Additional observations from a re-analysis of the deposited data

Results flagged for a closer look

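FOS and EGR1 were lower in both LM2 libraries and higher in the bleomycin library, each set against its own clone in culture. The bleomycin log2 ratio exceeded the mean of the LM2 ratios by 2.07 for FOS and by 1.36 for EGR1. That mean takes in the clone 3 culture, where FOS was at 62.2 CPM, against 21.1 CPM in the clone 1 culture. The fitted log2 difference of bleomycin over LM2 was smaller, at 1.11 for FOS and 0.96 for EGR1. The test of bleomycin over LM2 did not pass for either (adjusted p = 0.926 for both, edgeR). FOSB and NR4A1 were above culture under LM2 in clone 1 and below it in clone 3, with gaps of 1.92 for FOSB and 1.22 for NR4A1 between the log2 ratios. The FOSB gap lay mostly in the cultures, at 6.65 and 30.7 CPM for clones 1 and 3. The LM2 libraries were at 7.75 and 9.46 CPM. With 1 library per clone and condition the gaps were not tested.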

How the results depend on the processing

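Over 558 refits of the 9 genes' log2 fold changes, 485 kept direction and side of the threshold, 54 newly passed and 19 changed sign, and the cause was not tested. Among 154 refits of the named genes of other lists, chosen after seeing the data, 129 kept both, 21 newly passed and 4 (CCN2) no longer passed. Genes called were 14 (LM2) and 74 (ITGB4-high) with RLE factors. Without the filter, over 33274 genes, they were 1748 (LM2), 1430 (bleomycin), 2707 (ITGB4-high), 2152 (all lung), 1406 (lung over ITGB4-high) and 236 (bleomycin over LM2). Of the 9 genes, 2, 3, 2 and 4 were called in the first 4 of these, beside 5.25%, 4.3%, 8.14% and 6.47% of those genes. With DESeq2 the genes called were 647, 580, 1517, 1278, 1086 and 56 in that order. They held 2, 2, 2 and 3 of the 9 in the first 4, beside 4.13%, 3.7%, 9.68% and 8.15% of tested genes. With limma-voom the genes called were 2 (LM2) and 2 (ITGB4-high). With the clone as a replicate block they were 36 (LM2), 8 (bleomycin), 363 (ITGB4-high, with 1 of the 9, FOS), 39 (all lung) and 0 (lung over ITGB4-high), and FOS (0.52) and FOSB (0.67) changed sign under bleomycin; the block changed no other call of the 9 genes. IER3 for bleomycin over LM2 was 0.10 with limma-voom.

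Leaving out 1 library at a time gave 0 to 1012 called genes for all lung cells, 0 to 6303 for LM2, 0 to 4424 for bleomycin, 0 to 6611 for ITGB4-high, 0 to 1432 for lung over ITGB4-high and 0 to 2969 for bleomycin over LM2. Of the 9 genes, 0 to 2, 0 to 6, 0 to 4, 0 to 7, 0 to 0 and 0 to 2 were called in that order, and 5 to 6 had every lung library above the ITGB4-low cultures. The count for all lung cells was 0 without either ITGB4-low culture, 4 without bleomycin, 393 without LM2 clone 1 and 1012 without LM2 clone 3. The log2 fold changes that changed sign ran over these refits from -1.46 to 0.72 (FOSB) and -0.23 to 0.23 (NR4A1) for all lung cells, and from -1.81 to 0.37 (FOSB) and -0.55 to 0.20 (NR4A1) for LM2. For bleomycin they ran from -0.99 to 0.55 (FOS), -0.95 to 1.23 (FOSB), -0.00045 to 0.39 (EGR1) and -0.062 to 0.40 (NR4A1). For ITGB4-high, FOSB ran from -0.64 to 1.56. For lung over ITGB4-high they ran from -0.063 to 0.37 (JUNB) and -0.32 to 0.38 (ATF3). For bleomycin over LM2 they ran from -0.015 to 0.49 (JUN), -0.65 to 0.84 (IER3) and -0.066 to 0.67 (NR4A1). Where a group is left with 1 library, that library is assumed to vary like the other groups. For the count of the 9 genes with every lung library above the cultures, the share over all tested genes was not computed in these refits. Leaving out a library can only ease such separation, for any gene.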
